A study of Mus musculus with 3 samples.

Results

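The genes described here make, cut and carry the glycosaminoglycans hyaluronan and chondroitin sulfate, and 10 such genes were followed among the 16621 genes listed in at least 1 of 3 libraries. They are the hyaluronan synthases Has1 and Has2, the hyaluronidases Hyal1 and Hyal2, the chondroitin polymerase Chsy1, the chain-starting transferases Csgalnact1 and Csgalnact2, the sulfotransferases Chst11 and Chst15, and the core protein versican, Vcan. They were matched by Entrez gene ID, and all 10 were found. The list was drawn up with the difference between the genotypes already known from these libraries, so for these 10 genes that difference is given as a description, with no p-value.

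Tail tendon derived stem cells, which are colony-forming progenitors grown out of tendon, came from C57BL/6 mice aged 10 weeks and were collected untreated at passage 4. The WT group is 1 library of wild-type cells. The DF508 group is 2 libraries of cells with the CFTRΔF508 mutation, the loss of a phenylalanine from an anion channel that is common in cystic fibrosis. The labels do not say how many animals were pooled, whether the DF508 libraries are separate cultures, or whether the allele was on 1 or both chromosomes.

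Hyaluronan is an unsulfated chain that the synthases extrude through the plasma membrane, and hyaluronidases cut it at the cell surface and in lysosomes. Chondroitin sulfate is built in the Golgi on a core protein: a linker sugar chain is laid down, Csgalnact enzymes start the chondroitin chain, Chsy1 with its partners lengthens it, and sulfotransferases such as Chst11 and Chst15 decorate it. Versican carries such chains and binds hyaluronan, and together they form the swollen coat around fibroblasts and tendon cells.

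The libraries held 5241826 to 5298326 estimated counts and listed 15346 to 15474 genes. All 16 tendon and stromal markers were listed in every library, and the tendon genes Thbs4 and Col1a1 were the highest of them. The transcription factor Scx, which marks tendon progenitors, was low at 1.88 to 2.71 FPKM (FPKM scales fragments to gene length and library size), while Mkx stood at 22.05 to 26.04 FPKM. The lowest of the 16 was Nt5e, at 0.42, 0.53 and 0.11 FPKM in WT and DF508 replicates 1 and 2. In replicate 2 Nt5e was under the 3 counts that a count of 0 allows. The epithelial genes Cdh1, Krt18, Krt5, Krt14 and Cldn4 and the endothelial genes Pecam1, Cdh5, Tie1 and Emcn were listed in no library. Such a gene had an estimate of 0 or no entry in the annotation used. Of 7 endothelial markers 3 were listed. Tek stood at 3.1, 2.81 and 2.64 FPKM in WT and DF508 replicates 1 and 2, and Erg was next, at 0.52 FPKM or less. The epithelial markers Epcam and Krt8 were at 0.32 FPKM or less. All 12 myeloid markers were listed in at least 1 library, and 11 of them were above WT in both DF508 libraries. Their summed level was 93.96 CPM in WT, 143.1 CPM in DF508 replicate 1 and 660.1 CPM in replicate 2, where CPM is the count scaled to the normalized library size. The sum of 8 smooth muscle and pericyte markers was 641.7 CPM in WT and 1524 CPM in each DF508 library, with Acta2 and Tagln leading. Of 8 chondrocyte markers, Acan, Matn1, Matn3 and Snorc were listed in no library, and the sum, mostly Comp and Sox9, was 522.1, 511.6 and 759 CPM. The part of these other cell types in the values below was not tested.

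Levels of the 10 genes spanned a wide range. Per length, versican, at 31.64 to 47.98 FPKM over the 3 libraries, and Csgalnact1, at 26.93 to 38.38 FPKM, were the highest. Csgalnact1 was above versican in WT, at 38.38 against 31.64 FPKM, and below it in both DF508 libraries. Chsy1 (19.55 to 25.04), Csgalnact2 (15.23 to 17.31) and Hyal2 (13.32 to 14.63) followed, in ranges of FPKM that did not overlap each other. Has2 (2.25 to 6.5), Hyal1 (4.19 to 4.64) and Chst15 (2.44 to 6.75) had ranges of FPKM that overlapped, and their order differed between the genotypes. In WT Chst15 was the highest of these and Has2 the lowest, and in both DF508 libraries Has2 was the highest and Chst15 the lowest, with Hyal1 between them throughout. Chst11 was at 1.12 to 1.33 FPKM, and Has1, at 0.09 to 0.54 FPKM, was the lowest.

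**Figure D1:**
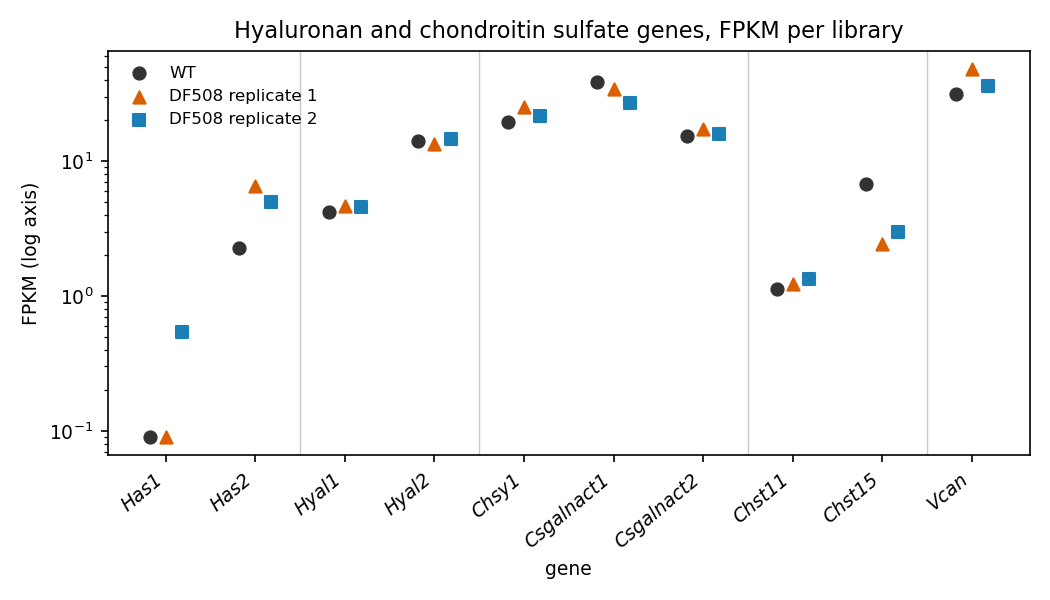
FPKM of each gene (log axis) in the WT library and the 2 DF508 libraries, 1 point per library, with genes ordered by role and grey lines between roles. Has2 is at 2.25 FPKM in WT and 6.5 and 4.93 in DF508, and Chst15 at 6.75 in WT and 2.44 and 3 in DF508. The points of the other genes lie closer together, apart from Has1, where WT and DF508 replicate 1 are at the floor of detection.

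Among the hyaluronan synthases, Has2 was higher in DF508. This enzyme makes most of the hyaluronan in mesenchymal tissues. It had 51 counts in WT and 146 and 111 counts in DF508 replicates 1 and 2, or 9.84, 27.64 and 20.95 CPM. Both DF508 libraries lay above WT, and they were nearer to each other than to it. The DF508 mean was 24.29 ± 4.735 CPM (SD, n = 2). Over the pooled DF508 counts the ratio to WT was 2.47, with an exact 95% interval of 1.82 to 3.40, which like all intervals here covers counting error only. Replicate 1 exceeded replicate 2 by 1.32-fold (interval 1.02 to 1.71). In bulk cultures such a value cannot tell more cells of a type from more RNA per cell.

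Has1, a synthase usually expressed at low level, had 1 count in WT, 1 in DF508 replicate 1 and 6 in replicate 2. A count of 0 allows 3 counts, so WT and replicate 1 were at the floor and only replicate 2 passed it. The ratio of replicate 2 to WT was 5.87, with an interval of 0.712 to 270 that includes 1. The third synthase, Has3, named here although the rule for named genes did not choose it, had 6, 7 and 5 counts. Has2 made up 88.9% of the summed FPKM of the 3 synthases in WT, 95.4% in DF508 replicate 1 and 87.6% in replicate 2, and the sum itself was 2.53, 6.81 and 5.63 FPKM. The antisense transcript Has2os, which overlaps Has2, had 10, 10 and 2 counts. No source used here states whether reads were assigned by strand. Estimates of both genes were whole numbers in every library, so the tables show no reads split between them. With Has2os added, the counts were 61, 156 and 113.

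The hyaluronidases varied little. Hyal2, which is anchored at the cell surface and cuts long hyaluronan into fragments, had 140, 130 and 143 counts in WT and DF508 replicates 1 and 2, or 27.01, 24.61 and 26.98 CPM. Its ratio to WT over both DF508 libraries was 0.955 (interval 0.776 to 1.18). Replicate 2 was level with WT in CPM and above it in FPKM, at 14.63 against 14.19. Hyal1, the lysosomal hyaluronidase, had 48.22, 52.81 and 52.43 estimated counts, a ratio of 1.07 (interval 0.755 to 1.54). A change within that interval was not detectable at this depth. Hyal1 had estimates that were not whole numbers, which means reads split with another gene, and its level is uncertain. It overlaps Hyal3, a further member of the family, in the annotation, and Hyal3 too had estimates that were not whole, at 18.13, 30.68 and 17.09. Their sums were 66.35, 83.49 and 69.52. These were not whole either, so which genes share the reads of Hyal1 is not settled by these values.

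The enzymes that start chondroitin chains differed from each other. Csgalnact1, which adds the first N-acetylgalactosamine to the linker, had 808 counts in WT, 720 in DF508 replicate 1 and 564 in replicate 2, or 155.9, 136.3 and 106.4 CPM. Both DF508 libraries were below WT. Replicate 2 stood 1.47-fold lower (interval 1.31 to 1.63) and replicate 1 1.14-fold lower (interval 1.03 to 1.27). The step between the DF508 libraries was wider than that from WT to replicate 1: replicate 1 exceeded replicate 2 by 1.28-fold (interval 1.15 to 1.43). Replicate 2 is the library with the most myeloid marker RNA, at 660.1 CPM in sum, and a link of Csgalnact1 to that RNA was not tested. Csgalnact2, its relative with the same activity, had 298, 335 and 308 counts, and both intervals of its ratio to WT included 1, from 0.941 to 1.29 and from 0.859 to 1.19. Csgalnact1 gave 71.6% of the summed FPKM of the pair in WT, 66.6% in DF508 replicate 1 and 62.9% in replicate 2.

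Chsy1, which lengthens the chain by adding both of its sugars in turn, had 435, 551 and 475 counts, or 83.93, 104.3 and 89.63 CPM. Both DF508 libraries were above WT, replicate 1 by 1.24-fold (interval 1.09 to 1.41) and replicate 2 by 1.07-fold (interval 0.936 to 1.22). The DF508 mean of 96.98 ± 10.39 CPM (SD, n = 2) had a spread close to its distance from WT.

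The sulfotransferases went separate ways. Chst15 adds a further sulfate to N-acetylgalactosamine that is already sulfated, which gives the highly sulfated chondroitin sulfate E unit. It had 153.37 estimated counts in WT and 54.78 and 67.6 in DF508 replicates 1 and 2, or 29.52, 10.41 and 12.83 CPM. Both DF508 libraries were far below WT and near each other, with a mean of 11.62 ± 1.71 CPM (SD, n = 2). Replicate 1 was 2.84-fold lower (interval 2.07 to 3.93) and replicate 2 2.30-fold lower (interval 1.72 to 3.11). Between the DF508 libraries the ratio was 1.23, with an interval of 0.851 to 1.79 that includes 1. The estimates of Chst15 are not whole in any library, so some of its reads are split with another gene and its level is uncertain. Chst11, which places the common sulfate on chondroitin, had 33, 36 and 39 counts, or 6.367, 6.816 and 7.359 CPM. Its pooled ratio of 1.11 had an interval of 0.73 to 1.73, so at this depth a change of the size seen in Csgalnact1 was not detectable.

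Versican is the large hyaluronan-binding proteoglycan that carries chondroitin sulfate. It had 1701 counts in WT, 2609 in DF508 replicate 1 and 1963 in replicate 2, or 328.2, 494 and 370.4 CPM. Both DF508 libraries were above WT, but unequally: replicate 1 by 1.51-fold (interval 1.42 to 1.60) and replicate 2 by 1.13-fold (interval 1.06 to 1.21). Replicate 1 exceeded replicate 2 by 1.33-fold (interval 1.26 to 1.42), and the DF508 mean was 432.2 ± 87.36 CPM (SD, n = 2). The distance from WT was thus of the order of the spread between the DF508 libraries. In FPKM the values were 31.64, 47.98 and 36.13.

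Versican is spliced into isoforms that differ in how much of the chondroitin-bearing region they keep, and the tables list 5 transcripts for it. The gene length in each table weights the isoforms by their estimated abundance; among 12930 genes with 1 transcript it differed between libraries in 0. For versican it was 10038.57 bases in WT, 10264.96 in DF508 replicate 1 and 10242.15 in replicate 2. The DF508 libraries were 2.26% and 2.03% longer than WT and differed from each other by -0.222%. Of 3126 tested genes with several transcripts and a length in every library, 338 (10.8%) were at least as far from WT in 1 direction in both DF508 libraries. Which isoforms made up the difference cannot be read from the gene tables. For Csgalnact1, with 2 transcripts, the length was 0.307% and 0.461% above WT, and 31.6% of those genes moved as far.

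The bases before the annotated starts of Chst15 and Vcan are shown because Chst15 stood farthest below WT and Vcan had the highest mean FPKM over the 3 libraries among the 10 genes. They are RefSeq sequence of build GRCm38.p6, which is not the mm9 build of the deposited tables, and no measurement was placed by these coordinates. Each window holds the 250 bases before a start, 5′ to 3′ on the gene's strand. Both Chst15 windows are on the minus strand, at chr7:132317229-132317478 for the upstream start and chr7:132317027-132317276 for the downstream start, and overlap in part. The Vcan window is on the minus strand at chr13:89742513-89742762. Capitals mark matches to 4 motifs searched on both strands: the TATA box as TATAAA, the CCAAT box as CCAAT, the GC box as GGGCGG and the AP-1 site as TGANTCA.
Chst15 upstream start: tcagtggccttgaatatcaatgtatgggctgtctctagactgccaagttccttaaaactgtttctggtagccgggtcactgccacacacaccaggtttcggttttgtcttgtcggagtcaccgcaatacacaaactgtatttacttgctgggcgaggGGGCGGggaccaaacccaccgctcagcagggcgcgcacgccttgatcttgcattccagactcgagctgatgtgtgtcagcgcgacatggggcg
Chst15 downstream start: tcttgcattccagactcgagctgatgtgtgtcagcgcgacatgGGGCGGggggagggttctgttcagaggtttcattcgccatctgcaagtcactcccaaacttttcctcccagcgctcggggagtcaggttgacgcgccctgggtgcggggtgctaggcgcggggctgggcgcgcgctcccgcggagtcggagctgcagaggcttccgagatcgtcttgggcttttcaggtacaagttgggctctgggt
Vcan: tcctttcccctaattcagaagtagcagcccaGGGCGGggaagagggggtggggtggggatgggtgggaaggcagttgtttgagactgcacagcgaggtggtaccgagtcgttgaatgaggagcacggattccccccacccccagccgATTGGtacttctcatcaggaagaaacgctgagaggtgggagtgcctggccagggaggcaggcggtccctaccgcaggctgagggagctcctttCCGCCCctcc
Each Chst15 window had 1 GC box, at 93 and 207 bases before its start, and no match to the other motifs. The Vcan window had 2 GC boxes, at 219 bases before the start and, on the opposite strand, at 10 bases, and 1 CCAAT box on the opposite strand at 103 bases. No marked match overlapped another. Over 32851 promoter windows of the same length, 32.7% held a GC box, 33.8% a CCAAT box, 12.4% a TATA box and 6.7% an AP-1 site. Of the 10 genes, 8 had an entry in the promoter table.

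Over the genes that passed the filter on low counts, 9 of the 10, all but Has1, had values to compare with the 12888 genes tested. Of the 9, 6 were above WT in both DF508 libraries and 3 below (Hyal2, Csgalnact1 and Chst15); over all tested genes 36.3% were above, 36.2% below and 27.5% neither. Has1, untested, was neither. Under upper-quartile factors, library totals and FPKM, Hyal2 moved out of that count and 2 remained below. The median log2 difference from WT was 0.10 over the 9 genes and -0.001 over all tested genes; it was 0.11 in DF508 replicate 1 and 0.08 in replicate 2. By size, Has2 was at least 1.5-fold above WT in both libraries, as were 4.35% of tested genes, and Chst15 at least 1.5-fold below, as were 2.51%. In edgeR's quasi-likelihood fit over all genes 1 of the 9 was among the 179 called, Chst15, lower, beside 1.39% of all genes in either direction. Since the list was chosen on this contrast, nothing is read from these counts. The Chst15 call was lost with library totals, without a filter and in limma on FPKM, settings that called 0 of all genes. DESeq2's Wald test gave the gene no adjusted p. The other settings kept the call, but for a gene chosen on this contrast nothing is read from that.

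**Figure D2:**
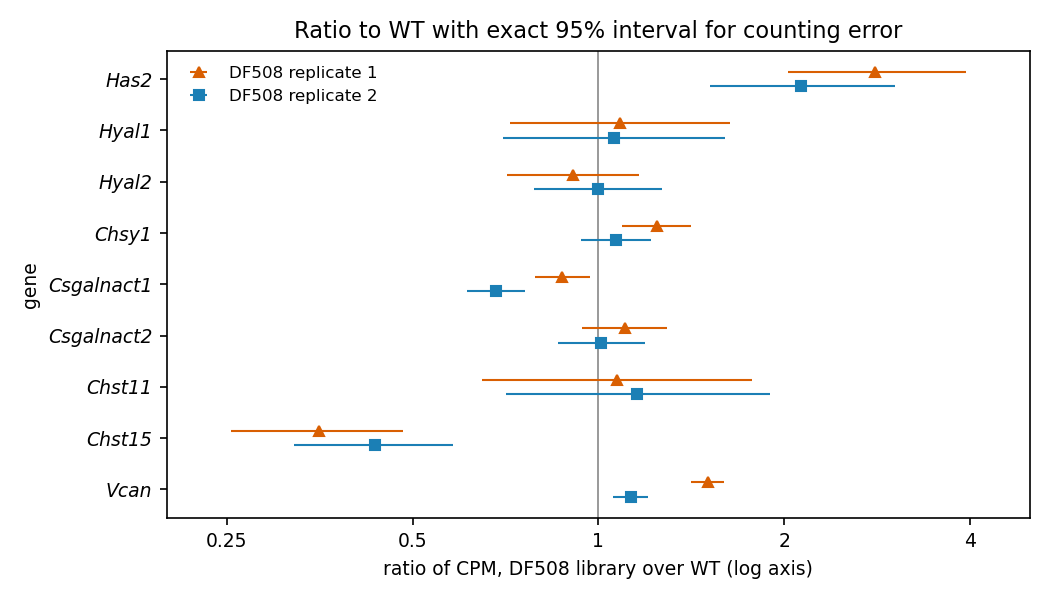
Ratio of CPM in each DF508 library to WT (log axis) for 9 genes, with bars for the exact 95% interval of counting error; the grey line marks a ratio of 1. Has1, with 1, 1 and 6 counts, is not drawn. Both intervals lie above 1 for Has2 and Vcan and below 1 for Csgalnact1 and Chst15, and those of Hyal1, Hyal2, Csgalnact2 and Chst11 include 1 in both libraries.

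**Figure D3:**
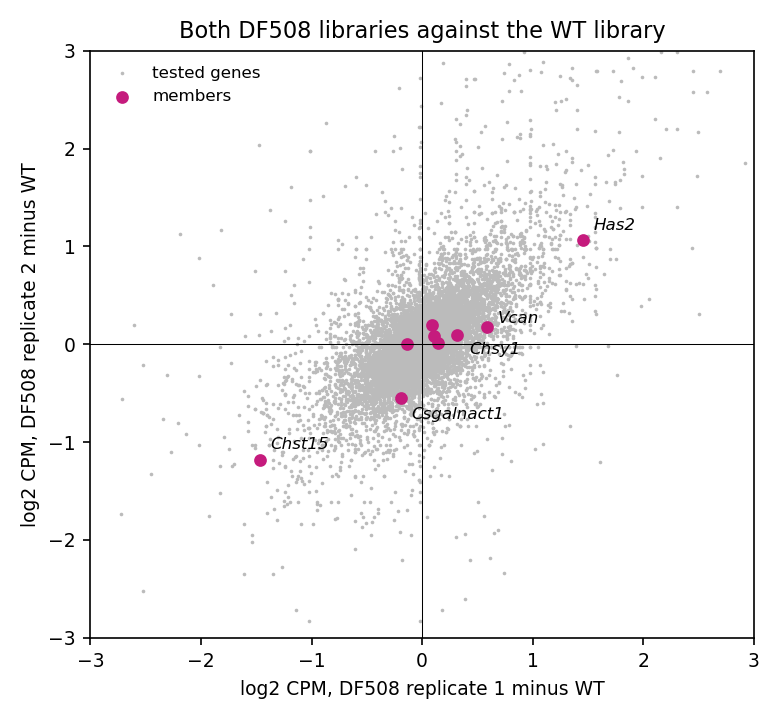
Log2 CPM difference from WT in DF508 replicate 1 (horizontal) and replicate 2 (vertical) for the 12888 tested genes in grey, with the 9 tested genes of the list in colour; 62 genes lie outside the axes. Both axes share the WT library, so points lie along the diagonal in part for that reason. Has2 and Chst15 stand away from the centre, and the other 7 lie within the main cloud.

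By closeness of the pattern over the 3 libraries, measured as the Euclidean distance of centred log2 CPM among 10954 genes averaging 5 CPM or more, the nearest to Chst15 were Lysmd1 (0.0984), Mt2 (0.118) and Mmp3 (0.135), with 7 genes within 0.2. The nearest to Has2 were Mcm10 (0.0375), Tslp (0.0407) and Cep89 (0.13), with 8 genes within 0.2. With 3 libraries such closeness is a description only.

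Other genes of the pathway were taken from 9 lists of 110 genes, of which 99 were listed in at least 1 library and 86 were tested. In DF508 1 of the 86 rose and 2 fell past an adjusted p of 0.05 (edgeR's quasi-likelihood test, Benjamini-Hochberg over all genes), beside 0.489% and 0.9% of all tested genes called higher and lower. The median log2 difference of the 86 was 0.006, beside -0.001 over all tested genes. The lists were written with results of these libraries known, and decorin, Adamts1 and Adamts5 were already known to be among the calls.

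Among 12 tested genes listed as core proteins of chondroitin or dermatan sulfate, decorin, Dcn, a collagen-binding proteoglycan, rose. It had 740.9 CPM in WT and 1023 and 1099 CPM in DF508, and both DF508 libraries were well above WT. The log2 fold change was 0.52 ± 0.09 (SE, adjusted p = 0.0417), and the other 11 did not pass. The list median was 0.13, with 5 genes above and 3 below WT in both libraries. Among the 5 was Smc3, better known as a cohesin subunit than as a core protein, at 104, 133.7 and 121.5 CPM. The median and these counts include it. Aggrecan, Acan, was listed in no library, which means an estimate of 0 or no entry in the annotation used.

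Of 5 tested proteases that cut versican and aggrecan, Adamts1 and Adamts5 fell. Adamts5 had 625.9 CPM in WT and 372.8 and 261.7 CPM in DF508 (log2 fold change -0.98 ± 0.17, SE, adjusted p = 0.0339). Adamts1 had 207 CPM in WT and 138.4 and 107.4 CPM in DF508 (log2 fold change -0.75 ± 0.14, SE, adjusted p = 0.045). For both, DF508 replicate 2 was the lowest library and both DF508 libraries lay below WT. The other 3 did not pass, among them Adamts9 at 8.682, 13.25 and 16.23 CPM, and the list median was -0.07.

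The 3 calls were lost with library totals, with no filter on low counts and in limma on FPKM. With DESeq2's Wald test Dcn and Adamts1 passed, and Adamts5 did not (adjusted p = 0.419). Adamts1 was also lost with upper-quartile factors and with a mean count of at least 50.

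In the other 7 lists 0 of 69 tested genes passed. In edgeR's quasi-likelihood test 9 of the 69 were at an unadjusted p under 0.05, as were 1538 of all 12888 tested genes. With limma-voom 0 of the 69 were called too. The likelihood ratio test of edgeR called 2 of them, Itih5 and Ugp2, beside 403 of all 12888 genes. DESeq2's Wald test called 0, but it gave an adjusted p to only 3643 genes. How many of the 69 were among those was not counted. The hyaluronan-binding protein Cemip, which is needed for hyaluronan breakdown in skin fibroblasts, was far more abundant than Hyal1 and Hyal2 per length, at 177.04, 199.94 and 194.54 FPKM. The related Cemip2 had 17.17, 25.18 and 26.42 CPM, with both DF508 libraries above WT (adjusted p = 0.266 in the same edgeR fit). Among binding proteins, Ptx3, which crosslinks hyaluronan through inter-alpha-trypsin inhibitor chains, had 932.7, 802.4 and 837.6 CPM. The receptor Cd44 had 426.6, 496.4 and 422.9 CPM, with WT between the DF508 libraries.

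Enzymes that supply sugars and sulfate had a median log2 difference of -0.02 over 18 tested genes. Ugdh, which makes the UDP-glucuronic acid that both chains need, had 53.25, 52.36 and 51.98 FPKM, and Ugp2, a step before it, 42.49, 32.32 and 30.81 FPKM (adjusted p = 0.0835 in edgeR's quasi-likelihood test). The median was -0.10 over 7 enzymes of the linker, where the xylose kinase Fam20b had 21.65, 19.65 and 20.61 FPKM and the xylose phosphatase Pxylp1 15.99, 14.15 and 14.32 FPKM. Of the 3 further polymerising proteins, Chpf had 37.56, 38.97 and 38.88 FPKM and Chpf2, which shares reads, 25.51, 23.67 and 20.48 FPKM. Chsy3 was lower, at 0.82, 1.37 and 2.3 FPKM, with both DF508 libraries above WT (adjusted p = 0.419 in edgeR's quasi-likelihood test). Among 7 tested sulfotransferases and epimerases the median was -0.02. Chst12, which like Chst11 sulfates chondroitin, had 74.8, 67.11 and 72.34 FPKM, and the epimerase Dse, which turns chondroitin into dermatan, 39.27, 32.82 and 36.53 FPKM. In FPKM the lowest Chst12 library was thus far above the highest Chst11 library, 1.33. The 19 tested heparan sulfate enzymes, of a related chain, had a median of -0.05; Hs6st2, which shares reads, had 101.42, 128.9 and 105.76 FPKM and the polymerase subunit Ext2 66.06, 52.01 and 53.01 FPKM.

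**Figure D4:**
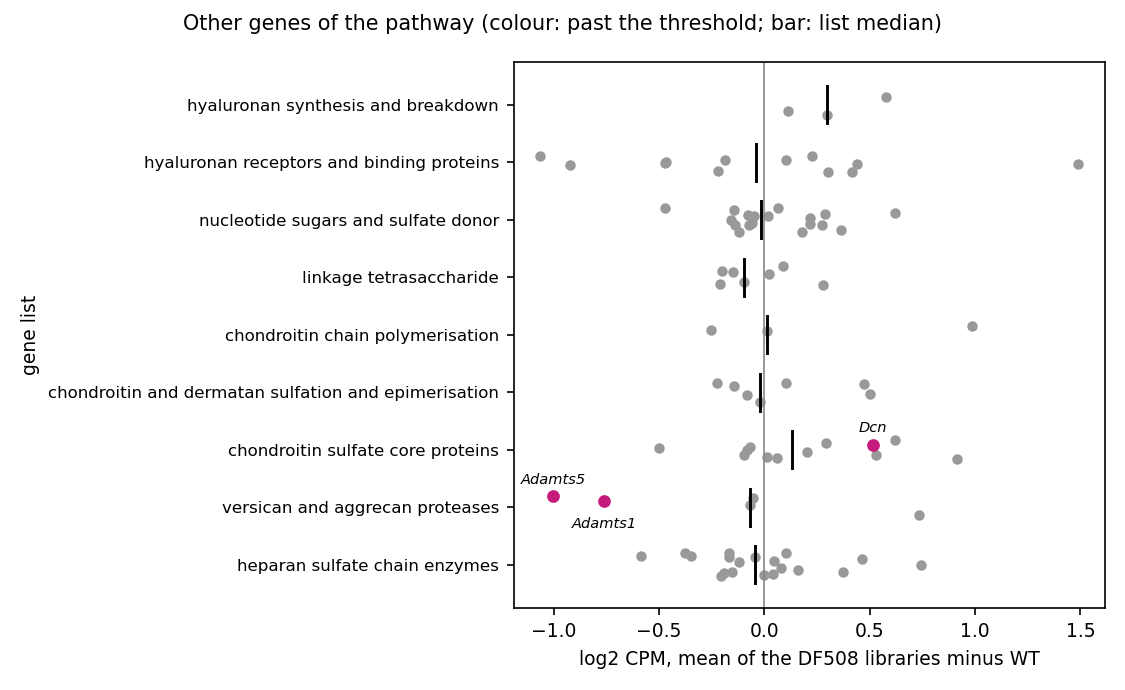
Log2 CPM difference, mean of the DF508 libraries minus WT, for each tested gene of 9 pathway lists (horizontal axis; points are jittered vertically), with the list median as a black bar. The 3 genes past the threshold are coloured and named: Dcn at 0.52, Adamts1 at -0.76 and, farthest left of the 3, Adamts5.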

How the data were processed

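Tables of 1 WT and 2 DF508 libraries were used, 1 table per library. Bowtie and RSEM with the mm9 genome were used, per the submitters' processing notes; for versions, annotation release and strand setting: not given in the sources used here. Per the file headers, each row holds a deposited expected count (estimated by RSEM, not normalized), a deposited FPKM value (scaled by the authors to gene length and library size) and the gene length. A gene absent from a table was set to 0. Expected counts were rounded to whole numbers for tests. Of them 79.4% to 79.8% were whole within 0.005, and a gene with an estimate that was not whole in any library is called uncertain, since it shares reads.

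Gene IDs were matched to symbols in a RefSeq table of GRCm38.p6, with 16579 of 16621 matched; it was used only for names and neighbours. The genes followed, the gene lists and the tests were chosen with earlier results of these data known. A list of lysosomal breakdown enzymes was left out whole, because some of its genes are not reported here. CPM used TMM library sizes; log2 CPM used a prior count of 2. A count of 0 allows 3 counts, or 0.566 to 0.579 CPM. Ratios of counts have exact 95% intervals conditional on the sum (Poisson counts); no molecular identifiers are described, and both intervals and floors cover only counting error.

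Genotype was tested with edgeR's quasi-likelihood test on rounded counts, after filterByExpr, with genotype as the sole term and Benjamini-Hochberg adjustment over 12888 genes at a threshold of 0.05. The fit had 1 residual and 7.7 prior degrees of freedom; it took the spread of the lone WT library to be that of the DF508 libraries, and p-values reflect the spread of these samples alone, possibly technical. The standard error is the log2 fold change over the square root of F. Named genes are the 10 followed and, per pathway list, up to 4 past the threshold or else 2 by mean FPKM. Named too are 2 per marker list with markers at 0, neighbouring genes that could share reads, and 3 nearest genes in pattern for 2 members. Has3, Adamts9, Itih5, Chsy3, Smc3, Scx, Mkx and Nt5e were named outside that rule, after their values were seen. Alternatives were other size factors, library totals, other filters, limma-voom, the likelihood ratio test of edgeR, the Wald test of DESeq2, limma on log2(FPKM + 1) and log2(FPKM + 0.1), and leaving out each DF508 library. Software was DESeq2 1.42.0, limma 3.58.1 and edgeR 4.0.16 under R 4.3.3.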

Additional observations from a re-analysis of the deposited data

How the results depend on the processing

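Of 12888 genes 179 were called. DESeq2's Wald test called 63 of the 3643 genes to which it gave an adjusted p, and edgeR's likelihood ratio test called 403 of 12888. Library totals in place of TMM factors, no filter on low counts and limma on log2(FPKM + 1), on log2(FPKM + 0.1) and on log2(FPKM + 1) without a filter each called 0, while an unadjusted p under 0.05 was reached by 1253, 1123, 1145, 1159 and 1615 genes. The same settings called 0 pathway genes higher and 0 lower, against 1 and 2. The likelihood ratio test called 2 higher and 3 lower. DESeq2's Wald test, upper-quartile factors and a mean count of at least 50 called 1 lower each. The cause was not tested. For all genes, DESeq2 and upper-quartile factors, a mean count of at least 50 and limma-voom gave counts within 1.5 times. The median log2 difference of the 9 genes, 0.096, was 0.139 with library totals and 0.138 on log2(FPKM + 0.1), and 0.08 to 0.111 with 1 DF508 library left out. By size, at least 1.5-fold from WT, 560 genes were higher and 323 lower in both DF508 libraries. With 1 DF508 library left out, which asks for the fold in 1 library only, the counts were 913 to 1101 higher and 731 to 762 lower. With a library left out there is no residual degree of freedom, so no test was made. Scaling shifted the median of all tested genes by at most 0.043. Over these alternatives the log2 difference of Has2 ranged from 1.04 to 1.46 and that of Chst15 from -1.47 to -1.06. Has1 alone changed sign, to -0.009 without DF508 replicate 2, where it has 1 count as in WT. No paired analysis was possible because the WT group has 1 library with no replicate number. Depth limited Has1, Chst11 and Hyal1, with at most 53 counts in any library.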
